A study of Mus musculus with 9 samples.

Results

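The genes described here encode subunits of mitochondrial oxidative phosphorylation, the 5 protein complexes of the inner mitochondrial membrane that pass electrons to oxygen and make ATP. They were taken by symbol: every gene of the array whose name begins with Ndufa, Ndufb, Ndufc, Ndufs or Ndufv and a number (complex I), is Sdha, Sdhb, Sdhc or Sdhd (complex II), begins with Uqcr (complex III), with Cox and a number from 4 to 8 (complex IV), or with Atp5 (complex V). The rule itself uses no measured value. It gave 78 genes of the 12393 measured, with 33 in complex I, 4 in complex II, 8 in complex III, 16 in complex IV and 17 in complex V. Another 8 symbols of this pattern, among them Ndufa11 and Ndufs6, were read only by probe sets shared with other genes and were not analysed here.

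The RNA came from mouse bone marrow cells sorted as KSL, that is, bearing c-Kit and Sca-1 and lacking lineage markers and IL7Ra, a fraction that holds blood stem cells and early progenitors. There were 9 Affymetrix arrays, 3 biological replicates for each of 3 groups on a C57BL/6 background. The control mice were Runx1 floxed/floxed and lacked Mx-Cre, and the mice called Runx1KO were Runx1 floxed/floxed with MxCre +/-; cells of both were sorted 3 months after poly IC, which switches on the interferon-responsive Mx promoter that drives Cre in blood cells and in other tissues. The group RUNX1(41-214) consisted of mice given marrow that carried a retroviral vector for residues 41 to 214 of RUNX1, a fragment with the DNA-binding Runt domain, and its cells were sorted 4 months after transplantation. For this group no Runx1 floxed allele and no poly IC are labelled, and transplanted cells with an empty vector were not among the 9 samples, so that the fragment, the virus, transplantation, poly IC and the extra month cannot be told apart in its comparisons. Whether cells were sorted for the vector, and whether a replicate was 1 mouse or a pool, is not given in the sources used here, so the p-values measure the spread between the labelled replicates.

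Complex I, the NADH dehydrogenase, complex II, the succinate dehydrogenase, and complex III, the cytochrome bc1 complex, feed electrons by way of ubiquinone and cytochrome c to complex IV, the cytochrome c oxidase. The proton gradient so built drives complex V, the ATP synthase. Mitochondrial DNA encodes some core subunits, and the nucleus encodes the others and all of complex II. Blood stem cells are known for low mitochondrial respiration and reliance on glycolysis, and respiration rises when they differentiate.

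Values are given as log2(signal + 16) after quantile normalization, and each gene is read by its brightest probe set. Before the results, 2 arrays need naming. The log2 ratio of 3′ to 5′ signal of the Gapdh control probes, a sign of RNA length, was 2.13 in Runx1KO replicate 3 and 1.85 in control replicate 2. In the other 7 arrays it was 0.98 to 1.29. The same ratio of the Actin control probes was 1.98 in Runx1KO replicate 3, 0.99 in control replicate 2 and 0.44 to 0.88 in the other 7. Control replicate 2 was thus set apart by Gapdh more than by Actin. Kit, which defines the sort, was at 11.01 to 11.32 in control, 11.40 to 11.77 in Runx1KO and 11.51 to 11.83 in RUNX1(41-214) cells. Ly6a, which encodes Sca-1, was not measured by a probe set of its own. Il7r, a gene of the negative gate, was at 8.19 to 10.45 in control and 8.68 to 10.17 in Runx1KO cells and at 5.36 to 5.90 in RUNX1(41-214) cells, so the 2 groups given poly IC held Il7r RNA against the label of the gate. Runx1 was at 10.73, 9.88 and 10.58 in control cells, at 11.20, 11.73 and 11.40 in Runx1KO cells and at 10.82, 10.95 and 11.06 in RUNX1(41-214) cells. Its signal was thus higher, not lower, in the arrays labelled Runx1KO, but the place of the probes relative to the floxed exon is not given, so this does not check the deletion.

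**Figure D1:**
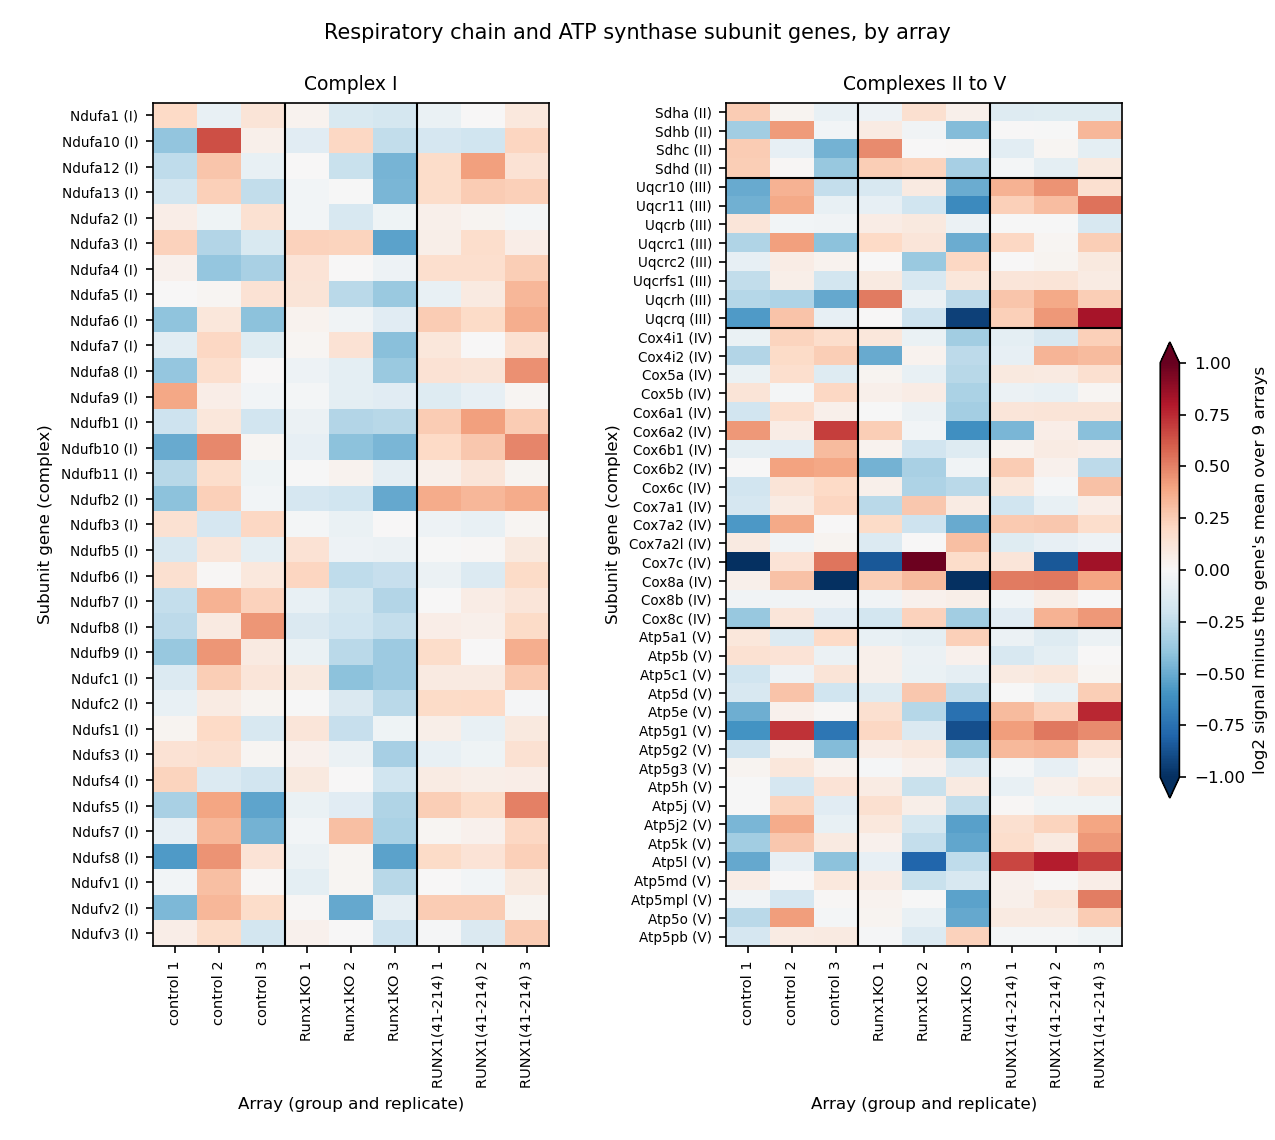
Signal of each of the 78 subunit genes in the 9 arrays, drawn as log2 signal minus the gene's mean over the 9 arrays; columns are arrays by group and replicate, rows are genes with their complex in brackets. Runx1KO replicate 3 is blue in most rows, and Atp5l is red in all 3 RUNX1(41-214) arrays.

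Most of the family was brightly measured. The mean over the 9 arrays exceeded the median of all genes, 7.95, for 69 of the 78 subunit genes, and the median of the family was 11.18. Its median standard deviation within groups was 0.20, against 0.24 for all genes. Among the 9 dim subunit genes were 6 forms of complex IV subunits known from particular tissues, the muscle forms Cox6a2, Cox7a1 and Cox8b, the testis forms Cox6b2 and Cox8c, and Cox4i2, known from lung and hypoxia. Cox8b was at the floor of the scale, with deposited signals of 1.00 to 2.11. Cox7c, also dim, had the widest spread, 0.87, and its 3 control arrays ran from 5.66 to 7.29.

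Atp5l was the subunit gene that passed a test. It encodes subunit g of the ATP synthase, a small membrane subunit that helps ATP synthase dimers form. It was at 6.79, 7.21 and 6.89 in control cells, at 7.22, 6.51 and 7.04 in Runx1KO cells and at 7.97, 8.08 and 7.99 in RUNX1(41-214) cells. All 3 RUNX1(41-214) arrays lay above the other 6, and the control and Runx1KO arrays overlapped. In limma's test with Benjamini-Hochberg adjustment over 12393 genes, Atp5l was higher in RUNX1(41-214) than in control cells by 1.05 ± 0.23 on the log2 scale (SE, 95% interval 0.54 to 1.56, adjusted p = 0.025), a fold of 2.07, and than in Runx1KO cells by 1.09 ± 0.23 (95% interval 0.58 to 1.60, adjusted p = 0.0439). Between Runx1KO and control cells the difference was -0.04 ± 0.23. Atp5l was dim and had 1 probe set, so no other probe set checks it. Its call against Runx1KO was lost when the replicate number was a block (adjusted p = 0.0741) and when any array but control replicate 2 was left out (0.0565 to 0.201), and its call against control was lost on leaving out control replicate 1 or 3 or any RUNX1(41-214) array (0.0682 to 0.112).

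The stretch upstream of Atp5l is shown because it is the gene that passed; it is the 250 bases before the RefSeq start of the gene, chr9:44920743-44920992 of GRCm38.p6, minus strand. Capitals mark, in this order, the letters GCATGCGC, the core read by NRF1, a nuclear factor known for driving respiratory genes, and CTTCCGG, the reverse of CCGGAAG, which ETS factors such as GABP read.

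Atp5l: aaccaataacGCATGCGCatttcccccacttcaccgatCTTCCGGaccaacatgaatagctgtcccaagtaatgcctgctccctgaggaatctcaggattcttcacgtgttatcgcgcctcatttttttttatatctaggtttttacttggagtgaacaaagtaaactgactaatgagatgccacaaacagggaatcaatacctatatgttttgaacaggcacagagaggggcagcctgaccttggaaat

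RefSeq promoters of 300 bases, 250 before and 50 after the start, could be matched to 64 of the 78 subunit genes and to 9887 genes in all. On either strand, GCATGCGC was present in 9 of the 64, 14.1%, against 5.01% of all promoters, and these 9 were Ndufa6, Ndufa8, Sdhb, Uqcr11, Uqcrc1, Cox6a1, Atp5g2, Atp5k and Atp5l. CCGGAAG was present in 17, 26.6% against 16.3%, and AAGATGGC, read by YY1, in 9, 14.1% against 4.39%. TGTGGT, the core that the Runt domain reads, was present in 7, 10.9% against 15.7%. Such matches describe the letters only; binding was not measured. The 40-base stretches printed next were picked for holding the NRF1 core (Atp5g2, chr15:102671066-102671105; Atp5k, chr5:108434426-108434465; Cox6a1, chr5:115349097-115349136) or the Runt core, read here on the other strand as ACCACA (Uqcr11, chr10:80406913-80406952; Ndufb10, chr17:24724488-24724527), all in GRCm38.p6, minus strand, with the match in capitals. In the NRF1 stretches the capitals cover 2 overlapping matches, 1 on each strand.

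Atp5g2: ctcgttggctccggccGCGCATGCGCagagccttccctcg
Atp5k: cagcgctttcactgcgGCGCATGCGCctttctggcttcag
Cox6a1: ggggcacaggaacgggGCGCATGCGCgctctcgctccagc
Uqcr11: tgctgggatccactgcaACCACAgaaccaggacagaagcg
Ndufb10: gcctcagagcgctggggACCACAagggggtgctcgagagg

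Between the cells labelled Runx1KO and control cells, no subunit gene passed the threshold. Of all genes, 0.347% passed in this comparison, 43 in number, 0.234% on the higher and 0.113% on the lower side, and of the 78 subunit genes 0. At an unadjusted p under 0.05 in the same limma fit there was 1 subunit gene, Cox6b2, on the lower side, where 3.38% of all genes stood, and 0 on the higher side, where 3.84% stood. The 95% interval of the difference lay within a 1.5-fold change either way for 53 of the 78 and within a 2-fold change for 75, against 46.5% and 89.3% of all genes, so that larger changes were outside the interval for most of the family. Cox6a2, Cox6b2 and Cox7c were the 3 whose interval reached beyond a 2-fold change. These intervals use a spread pooled over all 3 groups, including RUNX1(41-214). There the median standard deviation of the subunit genes was lower, 0.09 against 0.22 in control and 0.22 in Runx1KO cells.

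The small differences between Runx1KO and control cells were mostly below 0, and the size of this lean depended on single arrays. The family's median was -0.10, beside -0.00 for all genes, with 58 subunit genes below 0, where 50.8% of all genes lay, and 20 above, where 49.2% lay. Without control replicate 2 and Runx1KO replicate 3 the median was 0.04, with 32 below and 46 above. These were the highest control array, by a median deviation of 0.13 from the 9-array mean, and the lowest Runx1KO array, at -0.27. Leaving out both therefore had to raise the median. It was -0.03 without control replicate 2 alone, with 44 below 0, and -0.04 without Runx1KO replicate 3 alone, with 46 below. Without control replicate 1, whose Gapdh ratio was not high, it was -0.13, with 62 below. Runx1KO replicate 3 had the lowest of the 9 values for 32 of the 78 subunit genes, against 13.2% of all genes, and control replicate 2 had the highest for 22, against 15.5%. The part of RNA quality in this lean was not tested. By complex, the medians of Runx1KO minus control were -0.15 for I, 0.03 for II, -0.02 for III, -0.12 for IV and -0.07 for V with all 9 arrays, and 0.02, 0.25, 0.20, -0.03 and 0.03 without those 2.

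**Figure D2:**
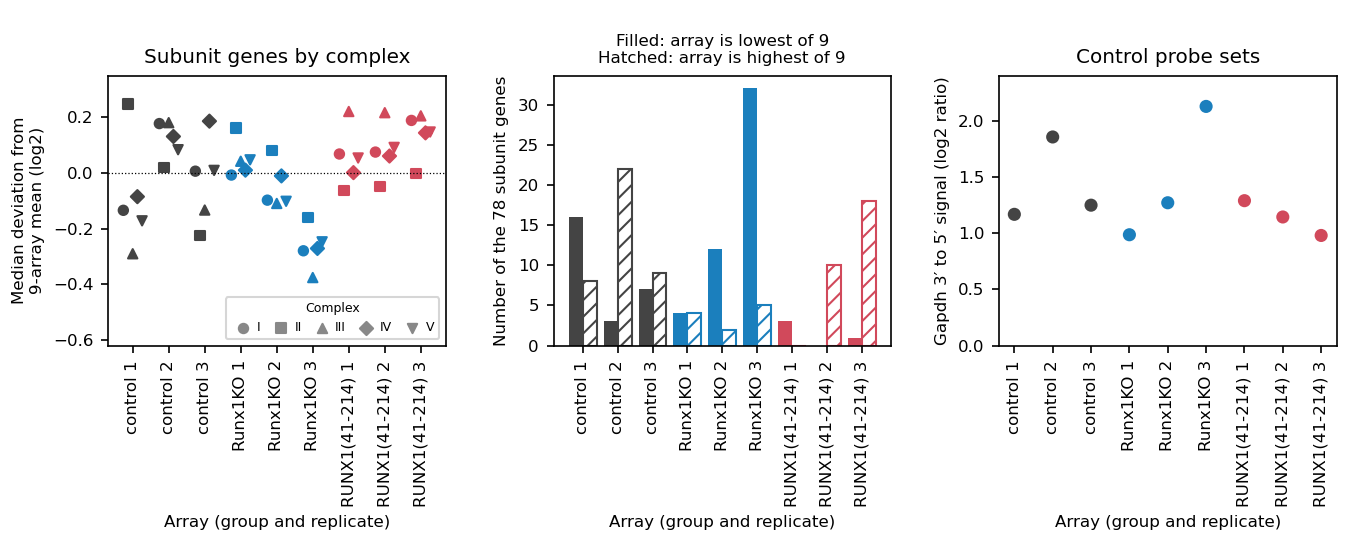
Left, the median deviation of each complex from the gene's 9-array mean in each array; middle, how many of the 78 subunit genes have their lowest (filled bars) or highest (hatched bars) value in that array; right, the log2 ratio of 3′ to 5′ Gapdh control signal. Runx1KO replicate 3 holds the lowest value of 32 genes and has the highest Gapdh ratio, 2.13.

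In RUNX1(41-214) against control cells, Atp5l was the 1 subunit gene called, on the higher side, where 1.73% of all genes were called. On the lower side, where 2.56% were called, there was 0 of 78, and 4.28% of all genes were called in either direction. The family's median was 0.10, beside 0.02 for all genes, and 55 subunit genes lay above 0, where 52.6% of all genes lay, and 23 below, where 47.4% lay. This median moved with single arrays: it was 0.02 (42 above 0) without control replicate 1, 0.05 (46 above 0) without RUNX1(41-214) replicate 3 and 0.16 (58 above 0) without control replicate 2. For 12 subunit genes all 3 RUNX1(41-214) arrays exceeded the 3 control arrays (15.4%, against 10% of all genes), and for 3, Cox6a2, Cox7a2l and Sdha, they all lay below (3.85%, against 10.2%). Among the 12 was Cox8b, at the floor of the scale, with a difference of 0.04. At an unadjusted p under 0.05 stood 8 on the higher side, Atp5e, Atp5g2, Atp5l, Ndufa4, Ndufa6, Ndufb2, Uqcrh and Uqcrq (10.3%, against 7.32% of all genes), and Cox6a2 on the lower side (1.28%, against 8.16%). The intervals lay within 1.5-fold for 45 and within 2-fold for 69 of the 78, against 40.7% and 83.8% of all genes. Without control replicate 2 and Runx1KO replicate 3, 6 subunit genes were called, Atp5g1, Atp5g2, Atp5l, Ndufa6, Ndufa13 and Uqcrc1, 7.69% against 2.74% of all genes on that side.

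In RUNX1(41-214) against Runx1KO cells, Atp5l was again the 1 subunit gene called, on the higher side, where 0.299% of all genes were called; on the lower side, where 1.06% were, there was 0 of 78, and 1.36% were called in either direction. The median was 0.17, beside 0.02 for all genes, the largest of the 3 comparisons with all 9 arrays; without control replicate 2 and Runx1KO replicate 3 it was 0.12, under the 0.16 of RUNX1(41-214) minus control. With all arrays, 64 subunit genes lay above 0, where 53% of all genes lay, and 14 below, where 46.9% lay. The 3 arrays of RUNX1(41-214) all lay above the 3 of Runx1KO for 29 subunit genes, 37.2%, where 9.68% of all genes did so, and the reverse held for Sdha, where 9.13% of all genes did so. At an unadjusted p under 0.05 in limma's fit stood 16 on the higher side (20.5%, against 4.92% of all genes) and 0 on the lower side (5.66% of all genes). The 95% intervals lay within 1.5-fold for 41 and within 2-fold for 67 of the 78, against 43.8% and 86.7% of all genes. Without Runx1KO replicate 3, 4 stood on the higher side at an unadjusted p under 0.05 (5.13%, against 3.62%), and the median was 0.12 with 58 above 0, while 30 subunit genes had arrays that did not overlap on that side (38.5%, against 14.8%). The 2 comparisons with RUNX1(41-214) share its 3 arrays, and the 2 with control cells share the 3 control arrays, so their directions are not separate evidence.

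**Figure D3:**
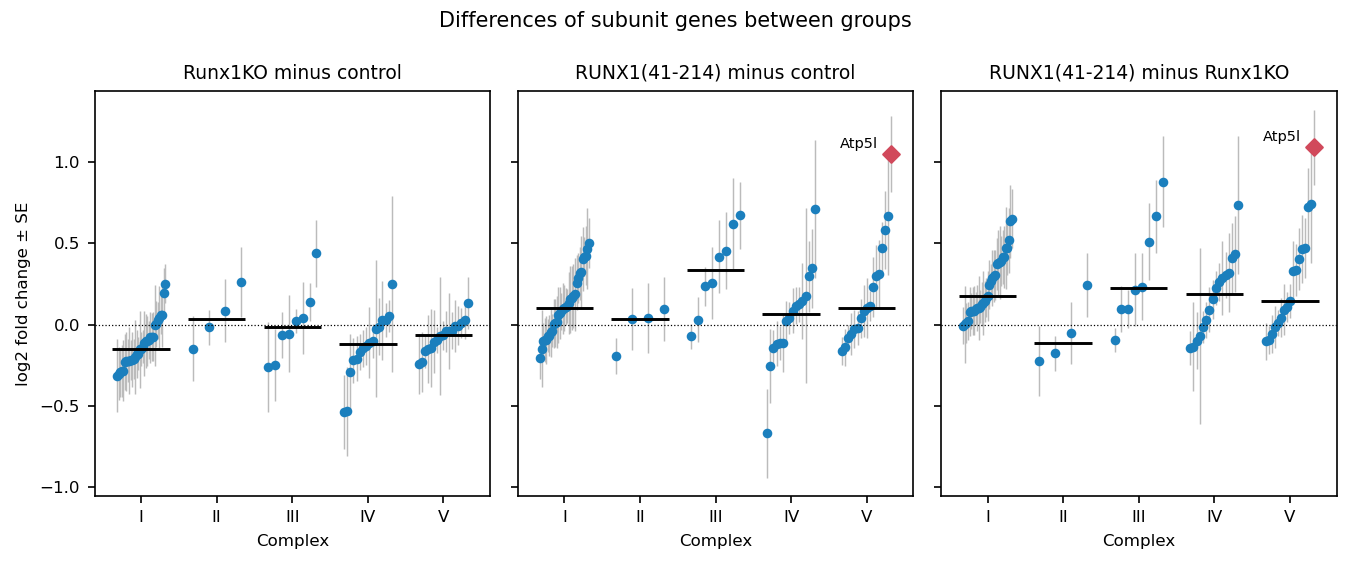
Differences of the 78 subunit genes between groups on the log2 scale, by complex, with grey lines for ± SE and black bars for the median of each complex; within a complex, genes are ordered by difference. Atp5l (red diamond) is the gene past the threshold, at 1.05 against control and 1.09 against Runx1KO cells.

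Scaling moved the level of these differences. Where arrays were centred on their medians in place of quantile normalization, the median of all genes itself stood at 0.12 for RUNX1(41-214) minus control and 0.11 for RUNX1(41-214) minus Runx1KO, and the calls against control split into 304 higher and 280 lower, where quantile normalization gave 214 higher and 317 lower. At an unadjusted p under 0.05 on the higher side, median centring gave 21 subunit genes against control (12.1% of all genes) and 35 against Runx1KO (8.14% of all genes), in place of 8 and 16. Relative to all genes, the subunit genes then stood at 0.14 and 0.19, where quantile normalization gave 0.08 and 0.15. For Runx1KO minus control, the family stood at -0.06 relative to all genes under median centring and at -0.10 under quantile normalization.

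Of the 5 complexes, complex I had the highest share of genes above 0 in RUNX1(41-214) minus Runx1KO. It had 32 of its 33 there, where 53% of all genes lay. Its median was 0.18, under the 0.22 of complex III and the 0.19 of complex IV. For 15 of the 33 the RUNX1(41-214) arrays all lay above those of Runx1KO, where 9.68% of all genes did so. The exception, Ndufb3, was at -0.01. The 6 measured core subunits, those of the arm that takes electrons from NADH (Ndufs1, Ndufs3, Ndufs7, Ndufs8, Ndufv1 and Ndufv2), had a median of 0.14 and the 27 accessory subunits, which surround that core, had one of 0.25. In Runx1KO minus control, complex I had 26 genes below 0, and 15 below 0 without the 2 arrays of high Gapdh ratio.

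Ndufb2, an accessory subunit of the membrane arm, was at 9.78, 10.44 and 10.16 in control cells, at 10.03, 9.996 and 9.68 in Runx1KO cells and at 10.56, 10.53 and 10.57 in RUNX1(41-214) cells. The RUNX1(41-214) arrays lay within 0.04 of each other and above all others. Against Runx1KO cells the difference was 0.65 ± 0.18 (limma, adjusted p = 0.149), and a further probe set of Ndufb2 gave 0.72 ± 0.20. Ndufb10, another membrane-arm subunit, was at 9.75, 10.73 and 10.27 in control, at 10.17, 9.84 and 9.79 in Runx1KO and at 10.45, 10.52 and 10.74 in RUNX1(41-214) cells. The RUNX1(41-214) arrays lay above those of Runx1KO, by 0.64 ± 0.23 on average, and the control arrays overlapped both groups.

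Ndufa4 and Ndufa6 had the lowest p of complex I against control cells. Ndufa4, named for complex I and since assigned to cytochrome c oxidase, was at 11.73, 11.31 and 11.37 in control, at 11.83, 11.69 and 11.64 in Runx1KO and at 11.86, 11.86 and 11.94 in RUNX1(41-214) cells. The RUNX1(41-214) arrays were above all others; the difference from control was 0.42 ± 0.12 (limma, adjusted p = 0.0888) and from Runx1KO 0.17 ± 0.12 (0.71). Ndufa6, an accessory subunit of the peripheral arm, was at 10.48, 10.9998 and 10.47 in control, at 10.92, 10.85 and 10.77 in Runx1KO and at 11.14, 11.08 and 11.24 in RUNX1(41-214) cells. Its difference from control was 0.50 ± 0.15 (limma, adjusted p = 0.112), and the RUNX1(41-214) arrays again overlapped no other. Ndufb7, which sits on the outer face of the membrane arm, had the lowest p of complex I after Ndufa4 in Runx1KO minus control. Its control arrays were at 10.94, 11.53 and 11.41 and its Runx1KO arrays at 11.11, 11.0006 and 10.89, which overlapped, with a difference of -0.29 ± 0.15 (limma, adjusted p = 0.758).

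None of the 4 genes of complex II passed, and its median against Runx1KO cells was the 1 below 0 among the 5 complexes. Sdha, the flavoprotein that oxidizes succinate, was at 11.87, 11.64 and 11.54 in control, at 11.57, 11.77 and 11.67 in Runx1KO and at 11.48, 11.49 and 11.50 in RUNX1(41-214) cells. The RUNX1(41-214) arrays were the lowest 3, by -0.19 ± 0.11 against control and -0.18 ± 0.11 against Runx1KO cells (limma, adjusted p = 0.458 and 0.644). A second probe set of Sdha gave -0.15 ± 0.10 and -0.09 ± 0.10. Sdhb, the iron-sulfur subunit, was the complex II gene above 0 against Runx1KO, at 0.24 ± 0.20, and Sdhc, a membrane anchor, was at -0.22 ± 0.21. The median of the 4 in RUNX1(41-214) minus Runx1KO was -0.11 under quantile normalization and -0.00 under median centring, which is -0.11 relative to all genes there. A direction over 4 genes, 3 below 0, was not tested.

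Complex III had the highest median against control cells, 0.34 over 8 genes with 7 above 0, and 0.58 without the 2 arrays of high Gapdh ratio. Cyc1, cytochrome c1, is a further subunit of complex III whose symbol falls outside the rule. It was at -0.27 in RUNX1(41-214) minus control and is not in that median. Uqcrh, the hinge protein that docks cytochrome c1 to cytochrome c, was at 9.25, 9.22 and 9.02 in control, at 10.06, 9.48 and 9.28 in Runx1KO and at 9.81, 9.91 and 9.78 in RUNX1(41-214) cells. The control arrays were the lowest 3, with differences of 0.44 ± 0.21 for Runx1KO and 0.67 ± 0.21 for RUNX1(41-214) (limma, adjusted p = 0.71 and 0.114). Uqcrh was the 1 subunit gene whose Runx1KO arrays all exceeded the control arrays, where 5.34% of all genes did so, and without quantile normalization there was 0. Cox6b2 was the 1 gene the other way, where 5.2% did so.

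Uqcrq, a small membrane subunit, was at 9.42, 10.28 and 9.91 in control, at 9.997, 9.79 and 9.06 in Runx1KO and at 10.23, 10.43 and 10.82 in RUNX1(41-214) cells. RUNX1(41-214) exceeded Runx1KO cells by 0.88 ± 0.28 (limma, adjusted p = 0.226), the largest difference among the subunit genes after that of Atp5l, and its RUNX1(41-214) arrays overlapped those of control. Its probe set is of a type that can read more than 1 transcript, and its 3 other, dim probe sets gave 0.05 to 0.56. Uqcr11, the smallest subunit of the complex, was at 9.88, 10.74 and 10.28 in control, at 10.28, 10.16 and 9.72 in Runx1KO and at 10.59, 10.66 and 10.90 in RUNX1(41-214) cells, which lay above the Runx1KO arrays by 0.66 ± 0.22 (limma, adjusted p = 0.258) and overlapped control. For Uqcrfs1, the Rieske iron-sulfur protein, the difference from control was 0.23 ± 0.12, with arrays of 11.60, 11.61 and 11.56 against 11.23, 11.54 and 11.29, which did not overlap. The core proteins Uqcrc1 and Uqcrc2 were at 0.26 ± 0.22 and 0.03 ± 0.14 against control.

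Complex IV, where several subunits come in a ubiquitous form and a form of particular tissues, had 1 gene of 16 at an unadjusted p under 0.05 in each comparison. It was Cox6b2 in Runx1KO minus control (lower side, 3.38% of all genes), Cox6a2 in RUNX1(41-214) minus control (lower side, 8.16%) and Cox6a1 in RUNX1(41-214) minus Runx1KO (higher side, 4.92%). The 10 ubiquitous genes had a median of 0.10 in RUNX1(41-214) minus control and 0.19 in RUNX1(41-214) minus Runx1KO, and the 6 tissue forms had medians of -0.04 and 0.13. Cox6a2, the muscle form of subunit VIa, was at 7.31, 6.95 and 7.57 in control, at 7.12, 6.85 and 6.26 in Runx1KO and at 6.42, 6.94 and 6.46 in RUNX1(41-214) cells. RUNX1(41-214) was below control by -0.67 ± 0.27 (limma, adjusted p = 0.251), with a gap of 0.01 between the nearest arrays. Cox6a1, the ubiquitous form of the same subunit, was at 11.89, 12.25 and 12.13 in control, at 12.08, 12.02 and 11.74 in Runx1KO and at 12.20, 12.21 and 12.21 in RUNX1(41-214) cells, a difference of 0.12 ± 0.11 from control and 0.26 ± 0.11 from Runx1KO.

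Cox6b2, the testis form of subunit VIb, was at 7.67, 8.07 and 8.05 in control, at 7.20, 7.35 and 7.64 in Runx1KO and at 7.92, 7.71 and 7.40 in RUNX1(41-214) cells. Runx1KO arrays lay below control arrays by -0.54 ± 0.23 (limma, adjusted p = 0.629), with the nearest arrays 0.03 apart. Cox6b1, the ubiquitous form, was at -0.13 ± 0.12 in the same comparison. Of the other pairs, Cox4i1 was at -0.21 ± 0.14 and Cox4i2 at -0.29 ± 0.23 in Runx1KO minus control, and at -0.12 ± 0.14 and 0.14 ± 0.23 in RUNX1(41-214) minus control. Cox7a2, the liver-type subunit VIIa, was at 0.41 ± 0.22 in RUNX1(41-214) minus Runx1KO. Cox7a1 was at -0.10 ± 0.18 and the related Cox7a2l at -0.14 ± 0.10 there. Cox8a, the ubiquitous subunit VIII, was at 9.40, 9.64 and 8.32 in control, at 9.59, 9.67 and 8.03 in Runx1KO and at 9.86, 9.88 and 9.74 in RUNX1(41-214) cells; 1 low array in each of the first 2 groups gave it a standard error of 0.42 for a difference of 0.73 from Runx1KO. Other probe sets of Cox8a, of lower signal, gave 0.22 ± 0.31 and 0.16 ± 0.26 in that comparison. The testis form Cox8c was at 0.32 ± 0.24 there. Cox6c, a subunit with no tissue forms, was at 0.31 ± 0.14.

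**Figure D4:**
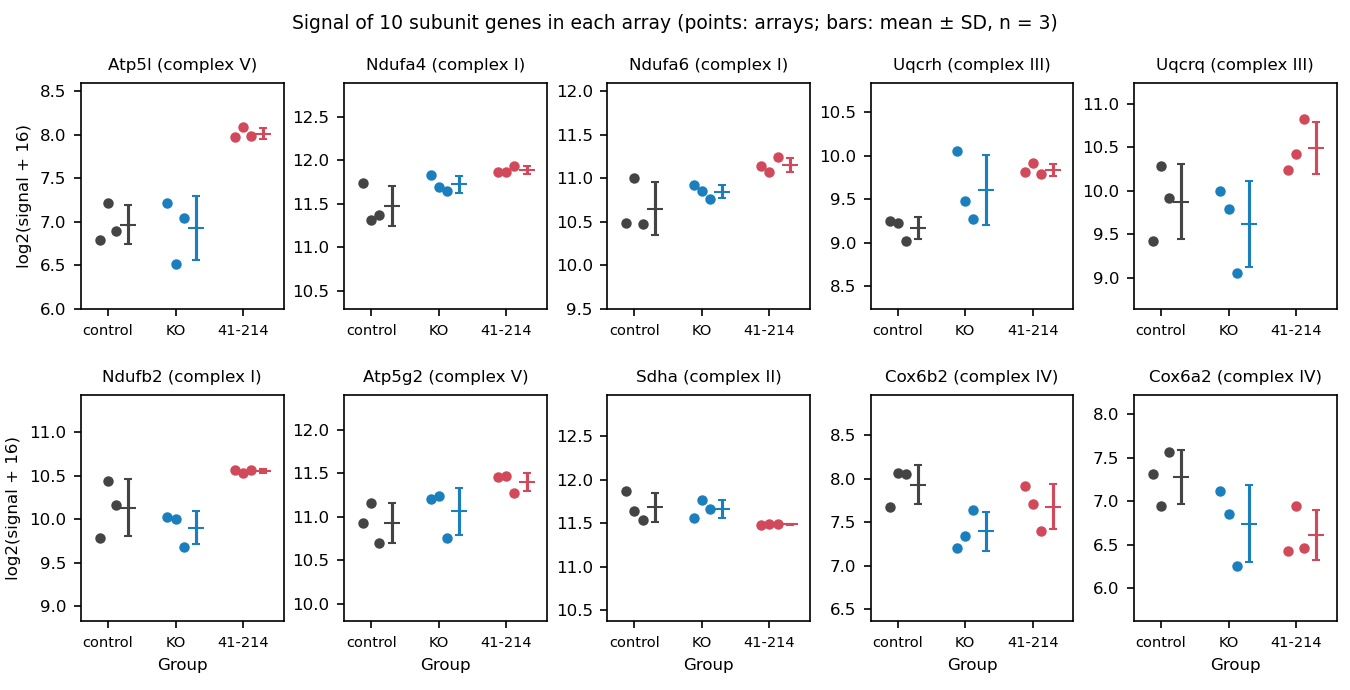
Log2(signal + 16) of 10 subunit genes in each array, with points for arrays and bars for mean ± SD (n = 3); the vertical axes differ between genes. RUNX1(41-214) arrays of Atp5l lie between 7.97 and 8.08, above the other 6 arrays, and those of Sdha between 11.48 and 11.50, below the other 6.

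Complex V, the ATP synthase, held Atp5l and 13 of 17 genes above 0 in RUNX1(41-214) minus Runx1KO. Atp5a1 and Atp5b, the alpha and beta subunits that form the catalytic head, were at -0.10 ± 0.11 and -0.10 ± 0.09 in RUNX1(41-214) minus Runx1KO. Atp5e, the epsilon subunit of the central stalk, was at 9.97, 10.49 and 10.46 in control, at 10.62, 10.17 and 9.71 in Runx1KO and at 10.77, 10.68 and 11.20 in RUNX1(41-214) cells. The RUNX1(41-214) arrays exceeded all others, by 0.72 ± 0.24 against Runx1KO (limma, adjusted p = 0.249) and 0.58 ± 0.24 against control (0.259). Its probe set too is of the type that can read more than 1 transcript. Atp5k, subunit e of the membrane part, was at 0.47 ± 0.18 against Runx1KO (limma, adjusted p = 0.362), with arrays of 11.40, 11.32 and 11.66 against 11.27, 10.99 and 10.70. Atp5md, a small subunit also called DAPIT, had 11.62, 11.59 and 11.64 against 11.65, 11.35 and 11.42 and a difference of 0.15 ± 0.10, with overlapping arrays. The median of the 5 genes of the head and central stalk was 0.09 and that of the 12 others 0.33; whether these differ was not tested.

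The subunit c of the membrane ring is encoded by 3 genes whose mature proteins are identical. Atp5g1 was at 8.75, 10.08 and 8.63 in control, at 9.56, 9.21 and 8.48 in Runx1KO and at 9.77, 9.88 and 9.82 in RUNX1(41-214) cells. Its control arrays spanned those of RUNX1(41-214) and overlapped those of Runx1KO, and the difference from control was 0.67 ± 0.36 (limma, adjusted p = 0.432). Atp5g2 was at 10.93, 11.16 and 10.70 in control, at 11.20, 11.23 and 10.75 in Runx1KO and at 11.45, 11.47 and 11.28 in RUNX1(41-214) cells, which lay above all others, by 0.47 ± 0.16 against control (limma, adjusted p = 0.158). A second probe set of Atp5g2, with a 9-array mean of 6.17, gave 0.11 ± 0.24 against control and -0.19 ± 0.24 against Runx1KO. Atp5g3 was at -0.08 ± 0.08 against control and 0.01 ± 0.08 against Runx1KO, and all 9 of its arrays lay between 12.17 and 12.41.

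For the subunit genes, the 3 RUNX1(41-214) arrays lay closer together than the arrays of the other groups. The median standard deviation of the subunit genes was 0.09 in RUNX1(41-214), 0.22 in control and 0.22 in Runx1KO cells, and that of all genes was 0.17, 0.24 and 0.22. RUNX1(41-214) had the lowest standard deviation of the 3 groups for 58 subunit genes, 74.4%, against 48.3% of all genes. Without control replicate 2 and Runx1KO replicate 3 the medians of the subunit genes were 0.09, 0.17 and 0.10. Those of all genes were 0.17, 0.18 and 0.16, and the count was 35, 44.9% against 30.2%. Control and Runx1KO then had 2 arrays each and RUNX1(41-214) had 3, so these standard deviations and this count compare unlike estimates.

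Other mitochondrial genes were read from lists of related functions, and 0 genes of any such list passed in any comparison. Of all genes, 0.347% passed in Runx1KO minus control, 4.28% in RUNX1(41-214) minus control and 1.36% in RUNX1(41-214) minus Runx1KO. The 74 measured proteins of the mitochondrial ribosome, which makes the subunits encoded by mitochondrial DNA, had medians of -0.23 in Runx1KO minus control, with 70 below 0, 0.03 in RUNX1(41-214) minus control, with 43 above, and 0.25 in RUNX1(41-214) minus Runx1KO, with 61 above. Without the 2 arrays of high Gapdh ratio these medians were 0.01, 0.18 and 0.17. Mrpl23, a protein of the large subunit of that ribosome, was at 0.75 ± 0.20 in RUNX1(41-214) minus Runx1KO (limma, adjusted p = 0.131), and Mrps25 of the small subunit was at -0.72 ± 0.19 in Runx1KO minus control (0.194).

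The list of 3 electron carrier genes held Cycs, its testis form Cyct, and Cyc1, which is itself a subunit of complex III. All 3 lay below 0 in Runx1KO minus control. Cycs, cytochrome c, was at 11.16, 11.57 and 11.49 in control, at 11.36, 10.66 and 10.79 in Runx1KO and at 11.05, 11.35 and 11.33 in RUNX1(41-214) cells, a difference of -0.46 ± 0.19 for Runx1KO minus control (limma, adjusted p = 0.572). Cyc1, cytochrome c1, was at -0.34 ± 0.18 there, and the median of the 3 carrier genes stood at -0.34 with all arrays and at -0.31 without the 2 arrays of high Gapdh ratio. All 3 also lay below 0 in RUNX1(41-214) minus control, with a median of -0.16. Among 32 measured assembly factors the median was -0.10 in Runx1KO minus control, -0.02 in RUNX1(41-214) minus control, with 15 above 0, and 0.15 in RUNX1(41-214) minus Runx1KO. Pet100, an assembly factor of complex IV, was at 8.60, 8.90 and 8.95 in control, at 9.03, 8.45 and 8.002 in Runx1KO and at 9.61, 9.40 and 10.08 in RUNX1(41-214) cells. It exceeded Runx1KO by 1.20 ± 0.27 and fell short of the threshold (limma, adjusted p = 0.0613). Ndufaf7, an assembly factor of complex I, was at -0.58 ± 0.19 in RUNX1(41-214) minus control (0.126).

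The 20 regulators of mitochondrial gene expression had medians of 0.08 in Runx1KO minus control, with 13 above 0, of 0.07 for RUNX1(41-214) against control and of -0.01 for RUNX1(41-214) against Runx1KO. Nrf1, the factor whose core was searched in the promoters, was at 0.51 ± 0.22 against control (limma, adjusted p = 0.299), the highest of the list, and was named after its value was seen. The lowest there, Ppargc1a, the coactivator known as a master switch of mitochondrial biogenesis, was at 6.97, 6.52 and 6.56 in control, at 6.32, 6.20 and 6.57 in Runx1KO and at 6.39, 5.56 and 5.62 in RUNX1(41-214) cells. It was dim, its RUNX1(41-214) arrays lay below those of control, and the difference was -0.82 ± 0.25 (limma, adjusted p = 0.112). Slirp, which stabilizes mitochondrial RNA, was at 0.39 ± 0.16 in RUNX1(41-214) minus Runx1KO. The 16 genes of the citric acid cycle and pyruvate dehydrogenase had medians of -0.08 in Runx1KO minus control, of -0.08 for RUNX1(41-214) against control and of 0.01 for RUNX1(41-214) against Runx1KO. Idh3b, of the NAD-dependent isocitrate dehydrogenase, was at -0.23 ± 0.10 in RUNX1(41-214) minus control, and Idh2, the NADP-dependent mitochondrial enzyme, at -0.24 ± 0.13 in Runx1KO minus control. For 12 carriers and channels the medians in that order were -0.09, 0.04 and 0.06, and Slc25a4, an ADP/ATP carrier, was at -0.42 ± 0.14 in RUNX1(41-214) minus control (0.133), while Vdac1, the outer membrane channel, was at 0.39 ± 0.14 against Runx1KO. For 8 antioxidant enzymes they were -0.00, 0.05 and 0.06, with the thioredoxin Txn2 at -0.41 ± 0.18 and the peroxiredoxin Prdx3 at 0.38 ± 0.20 in the comparisons where each had its lowest p, against Runx1KO and against control. Of these 8, Sod1, Gpx1 and Cat are not confined to mitochondria.

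**Figure D5:**
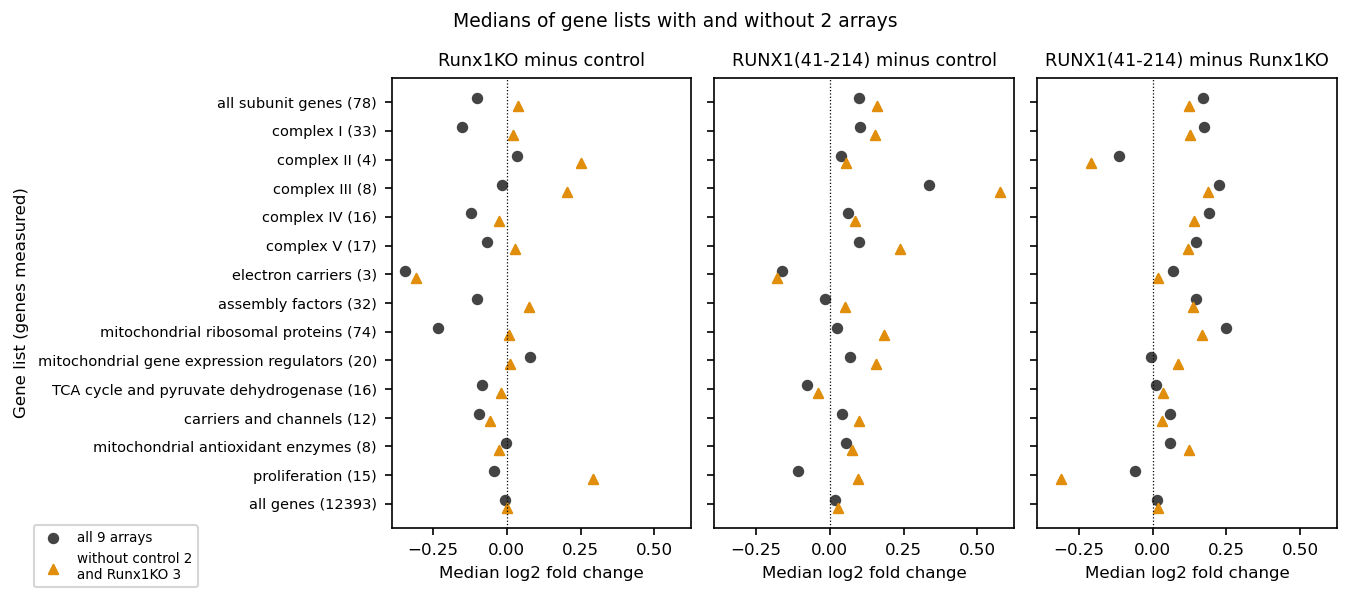
Median log2 fold change of each list of genes, with the number of genes measured in brackets, in the 3 comparisons; circles use all 9 arrays and triangles leave out control replicate 2 and Runx1KO replicate 3. The median of the 78 subunit genes in Runx1KO minus control stands at -0.10 with all arrays and at 0.04 without the 2.

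Genes of proliferation and markers of blood cells were read beside these results. The counts that passed here and in the next paragraph stand beside the same shares of all genes. These were 0.347% in Runx1KO minus control, 4.28% in RUNX1(41-214) minus control and 1.36% in RUNX1(41-214) minus Runx1KO. The 9 measured stem and multipotent progenitor markers had medians of 0.05 in Runx1KO minus control and 0.07 in RUNX1(41-214) minus control, each with 6 above 0. In RUNX1(41-214) minus Runx1KO it was -0.10, with 2 above. Of the 9, 2 were called lower against control (2.56% of all genes), 1 against Runx1KO (1.06%), and 0 higher. Procr was the lowest in both, at -0.87 and -0.92. The median of 15 proliferation genes was 10.05, 10.91 and 10.74 in the control arrays, 11.16, 10.70 and 10.10 in Runx1KO and 10.33, 10.34 and 10.87 in RUNX1(41-214), groups that overlapped; Tyms was at 0.45 ± 0.19 in RUNX1(41-214) minus Runx1KO and Rrm2 at -0.58 ± 0.28 in Runx1KO minus control, and 0 of the 15 passed. Without the 2 arrays of high Gapdh ratio their median stood at 0.29 in Runx1KO minus control and at -0.31 in RUNX1(41-214) minus Runx1KO, where the subunit genes stood at 0.04 and 0.12. The summed deposited signal of 5 megakaryocyte markers was 2573 to 3252 in control, 3940 to 4910 in Runx1KO and 6724 to 8600 in RUNX1(41-214) arrays; Itga2b passed in all 3 comparisons and the other 4 in none. Of 4 erythroid markers, Alas2, the mitochondrial enzyme that begins haem synthesis, passed against control (2.20 ± 0.41, limma, adjusted p = 0.0102) and Runx1KO. The medians of the 4 were -0.08 against control and -0.03 against Runx1KO, each with 2 above 0 and 2 below. Klf1 was the lowest in both, at -0.82 and -0.29. The list's sum was 219 to 2184 in control, 284 to 796 in Runx1KO and 337 to 1353 in RUNX1(41-214) arrays. Hba-a1, of haemoglobin, stayed at the floor at 4.09 to 4.86. The sum of the 5 measured genes of the negative gate was 343 to 1482 in control, 447 to 1275 in Runx1KO and 129 to 131 in RUNX1(41-214) arrays. Their medians were -0.03 against control, with 2 above 0, and -0.03 against Runx1KO, with 1 above. Il7r was the lowest in both, at -3.69 and -3.83, and Cd8a the highest, at 0.66 and 0.91.

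The 7 granulocyte markers had medians of -0.74 in Runx1KO minus control, of 0.17 for RUNX1(41-214) against control and of 0.88 for RUNX1(41-214) against Runx1KO, with 6 above 0, and 0 passed. Their summed signal was 4186 to 6563 in control, 4681 to 7578 in Runx1KO and 4992 to 7388 in RUNX1(41-214) arrays, which overlapped, and their granule genes Ltf, Camp and Ngp were highest of each group in replicate 1. The 4 measured B cell markers had medians of 0.20, -0.999 and -1.53 in the same order, and Vpreb1, of the pre-B cell receptor, was lower in RUNX1(41-214) than in control cells, at -1.54 ± 0.39 (limma, adjusted p = 0.0495). Their sum was 799.5 to 908.9 in control, 525 to 1338 in Runx1KO and 575 to 701 in RUNX1(41-214) arrays. Of 3 markers of T and NK cells, Nkg7, a granule protein of killer cells, was lower in RUNX1(41-214) than in control cells, at -2.43 ± 0.34 (limma, adjusted p = 0.00157). The median of the 3 in that comparison was -0.35, and Cd3g went the other way, at 0.50. The sums of the 3 were 965 to 1259 in control, 385 to 954 in Runx1KO and 135 to 290 in RUNX1(41-214) arrays. The 4 monocyte and macrophage markers had medians of 0.49, 0.50 and 0.19, sums of 469 to 2990, 1294 to 2454 and 1275 to 2372, and 0 passed. The part of these cells in the differences of the subunit genes was not tested, and in sorted bulk RNA fewer cells of a type and less RNA per cell cannot be told apart.

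Across all 3 groups at once, limma's moderated F test called 1 of the 78 subunit genes, Atp5l (adjusted p = 0.0296), where 3.4% of all genes were called. At an unadjusted p under 0.05 it held 11 of the 78, 14.1%, where 13.3% of all genes stood.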

How the data were processed

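Per the labels' protocols, total RNA was extracted on Qiagen microcolumns, amplified and given biotin in the two-cycle protocol of Affymetrix, and hybridised to 1 array per replicate. The authors deposited 1 linear signal intensity per probe set and array; how probes were summarised and whether arrays were scaled is not given in the sources used here. Of 22690 probe sets 64 controls were left out. Signals were turned into log2(signal + 16), which understates changes of dim genes, and quantile normalized. Of the rest, 20380 probe sets carried 1 symbol, 691 several and 1555 none; only the first were used. Each gene was read by the probe set with the highest mean, which gave 12393 genes and 147 probe sets for the 78 subunit genes; for the 43 with several, all probe sets had the same sign in 34, 36 and 35 cases in Runx1KO against control, RUNX1(41-214) against control and RUNX1(41-214) against Runx1KO.

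With limma 3.58.1 under R 4.3.3, group means were fitted over all 9 arrays (lmFit, eBayes with trend, 6 residual and 5.60 prior degrees of freedom); two-sided p-values were adjusted by Benjamini-Hochberg over all genes, with a threshold of 0.05. A gene was called dim where its highest group mean was under 8.23, the median over genes. With 3 arrays a group, a difference had a median standard error of 0.20, which sets the precision. The fit was tested on simulated data. Although the rule for the members reads symbols only, the members, lists, rules and tests were chosen with earlier results of these data known. Genes named are those called, the 2 with the lowest p per complex and comparison, paralogues both measured, and up to 4 called genes per other list or the 2 with the lowest p; other genes were named after their values were seen. Alternatives were other normalizations, offsets of 1 and 50, other uses of probe sets, no dim genes, array weights, a replicate block, fewer arrays and each array left out. Gene and promoter names came from GEO's platform annotation and RefSeq (GRCm38.p6).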

Additional observations from a re-analysis of the deposited data

How the results depend on the processing

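Genes called overall in Runx1KO minus control numbered 43, against 27 with all probe sets, 9 with only the 6 arrays compared and 14 to 50 with each array left out. In RUNX1(41-214) minus control there were 531, against 337 without dim genes and 297 to 611 with each array left out. In RUNX1(41-214) minus Runx1KO there were 168, against 106 without dim genes, 371 with array weights and 74 to 207 with each array left out. The 1 subunit gene called against control became 3 with median centring, 3 with array weights, 6 without both arrays of high Gapdh ratio, 0 without dim genes and 0 to 3 with each array left out; without control replicate 1 the gene called was Ndufa4, not Atp5l. The 1 called against Runx1KO became 2 with array weights, 0 to 1 with each array left out, and 0 without normalization, with all probe sets, without dim genes, with the replicate block, without both arrays of high Gapdh ratio and with only the 6 arrays compared. The 1 of the F test became 2 with array weights, 4 without both arrays, 0 without normalization, without dim genes and with the replicate block, and 0 to 2 with each array left out. In Runx1KO minus control 0 subunit genes were called under every one of these settings. Only the removal of dim genes shows its cause, since Atp5l is dim; other causes were not tested. After group means were removed, same-numbered arrays of control and Runx1KO correlated over all genes at 0.03, 0.41 and 0.42. Same-numbered pairs with RUNX1(41-214) correlated at -0.17 to 0.20. Arrays of unlike number were not compared, so whether the replicate numbers pair the arrays was not tested. With the block, 47, 535 and 171 genes were called. The family's median kept its sign under these settings in both comparisons with RUNX1(41-214), ranging from 0.02 to 0.26 against control and from 0.10 to 0.30 against Runx1KO. Precision is limited by 3 arrays per group, and dim genes by signal near the floor.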

Other observations

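The difference between RUNX1(41-214) and Runx1KO cells was larger in subunit genes of lower signal. For the 32 of the 78 with a 9-array mean under 11 the median was 0.35, and for the others 0.12. Over the 78 genes, which are not independent and share the 9 arrays, Spearman's correlation of mean signal with this difference was -0.39, with the difference from control -0.38 and with Runx1KO minus control 0.13; over all 12393 genes these were -0.06, -0.03 and 0.03.

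The brightest probe sets of 11 subunit genes were of the type that reads transcripts of several genes and those of 7 of the type open to cross-hybridisation, by the suffix of their names, so these values are uncertain where near-identical copies exist. Ndufa12, Ndufa13, Ndufc2 and Atp5j2, with an unadjusted p under 0.05 in RUNX1(41-214) minus Runx1KO, were among these 18, beside Uqcrq and Atp5e.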
